A study of Mus musculus with 6 samples.

Results

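Iroquois genes encode homeodomain transcription factors of the TALE class, which pattern the heart, limbs, lung and nervous system of the embryo. Mouse has them in 2 clusters. One holds Irx3, Irx5 and Irx6 beside Fto on chromosome 8, and the other holds Irx1, Irx2 and Irx4 on chromosome 13. Segments within Fto introns are known to contact the Irx3 promoter over a long distance in mouse, and Irx3 and Irx5 act together in limb and heart development. Rpgrip1l lies on the other side of Fto and starts close to it in the opposite direction. It encodes a protein of the transition zone, the gate at the base of the primary cilium, and is needed for Hedgehog signalling in the mouse embryo.

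The transcripts described here are those of Irx1, Irx2, Irx3, Irx5, Irx6 and Rpgrip1l, picked by gene name from a table of 19739 genes because they lie at, or are related to, the Fto locus. Of these 6 genes, 5 had a row in the table and all 5 were tested; Irx6 had none. Irx4, the family member outside the selection, was listed at 0 in each library.

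The cells were primary bone marrow mesenchymal stromal cells (BMSCs) of the mouse, which can become bone, fat or cartilage cells. They carried an adeno-associated virus (AAV) with FTO, the enzyme that removes the m6A mark from RNA, either as the 3KR form (3 libraries) or as the WT form (3 libraries). The title of the series concerns SUMOylation of FTO in bone loss of inflammatory bowel disease, and the comparison of 3KR with WT asks which transcripts differ between the forms. The labels do not spell out 3KR, nor the promoter of the virus, the strain, age or sex of the mice, or whether libraries of one group came from separate animals or cultures. A p-value here therefore covers the variation among these libraries, which may be technical. Both groups received FTO, and untreated cells were not analysed here. All 6 were input libraries of an m6A assay on poly(A) RNA, which give transcript levels, not m6A.

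Values were deposited as FPKM, fragments scaled to transcript length and to the mapped fragments of the library, and they allow levels of different genes to be set side by side. No read counts were given, so the depth is unknown. Library sums ran from 408605 to 421234 FPKM in 3KR and from 390527 to 391767 FPKM in WT. Differences were tested on log2(FPKM + 1) with limma over 10985 genes, and a gene is called where its Benjamini-Hochberg adjusted p is under 0.05. Of all tested genes 60.6% were called, 46.7% higher and 14.0% lower in 3KR, so a call by itself was common. The median log2 difference of tested genes was 0.15, and a change given as relative has this shift subtracted. All 12 stromal markers were expressed in both groups, and 4 of them were called higher (33.3%) and 6 lower (50.0%) in 3KR. Lepr, for example, was 4.59-fold higher and Ly6a 3.01-fold lower. Of 8 endothelial markers, Cldn5 and Tie1 were listed at 0 in each library, and the summed level was 2.80 to 3.16 FPKM in 3KR and 5.92 to 6.97 FPKM in WT. Tek, the only one tested and the largest part of the WT sum, measured 1.46 ± 0.0818 FPKM in 3KR and 5.14 ± 0.531 FPKM in WT (SD, n = 3 each; limma adjusted p = 3.124e-06). Of the 8, 4 averaged lower in 3KR, while Kdr and Egfl7, too low to test, averaged higher. Kdr averaged 0.335 FPKM in 3KR and 0.139 FPKM in WT, and Egfl7 0.987 FPKM in 3KR and 0.783 FPKM in WT. The 10 measured macrophage and leukocyte markers all averaged lower in 3KR. Their summed level was 1.80 to 3.17 FPKM in 3KR and 10.3 to 11.4 FPKM in WT. Mpeg1 made up the largest part of the WT sum, at 0.854 ± 0.361 FPKM in 3KR and 6.79 ± 0.288 FPKM in WT (limma adjusted p = 5.737e-06). Cd68, the other one tested, overlapped between the groups (limma adjusted p = 0.0836). The part of these marker differences in the results below was not tested, and in bulk RNA fewer cells of a type and less RNA per cell cannot be told apart.

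Promoter sequence shows how the genes are laid out. RefSeq windows of 250 bases before the start of the gene (build GRCm38.p6) were found for 3 of the 6 genes, Rpgrip1l, Irx3 and Irx2. The window of Rpgrip1l is shown because it is shared with Fto. The first bases of the 2 genes lie 302 bases apart on opposite strands, and 198 bases belong to both windows. Irx3 is shown as the most abundant Iroquois gene and Irx2 as a gene of the other cluster. In the sequences, read 5′ to 3′ on the strand of the gene, capitals mark matches on either strand to the GC box GGGCGG, the CCAAT box CCAAT, the TATA box TATAAA, or to ACTACA and TTCCCA with 1 base between them, letters of the site known for the factor ZNF143.
Rpgrip1l, chr8:91313223-91313472, minus strand: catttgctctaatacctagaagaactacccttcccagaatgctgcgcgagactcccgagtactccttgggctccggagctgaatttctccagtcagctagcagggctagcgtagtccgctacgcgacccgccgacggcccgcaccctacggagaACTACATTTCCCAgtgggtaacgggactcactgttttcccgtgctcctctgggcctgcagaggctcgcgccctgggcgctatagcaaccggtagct
Irx3, chr8:91801655-91801904, minus strand: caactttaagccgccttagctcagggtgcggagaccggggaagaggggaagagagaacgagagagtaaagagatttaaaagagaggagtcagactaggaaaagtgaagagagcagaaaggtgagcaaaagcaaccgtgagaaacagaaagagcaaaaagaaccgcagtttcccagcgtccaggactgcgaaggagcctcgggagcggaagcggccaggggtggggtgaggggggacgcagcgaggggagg
Irx2, chr13:72628570-72628819, plus strand: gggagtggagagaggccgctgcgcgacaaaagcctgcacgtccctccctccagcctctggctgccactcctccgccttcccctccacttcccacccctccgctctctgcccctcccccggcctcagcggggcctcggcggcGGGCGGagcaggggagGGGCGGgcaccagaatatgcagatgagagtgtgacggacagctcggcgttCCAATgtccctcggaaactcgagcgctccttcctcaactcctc

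The 3 windows differed in the letters they held. The Rpgrip1l window had 1 match to the ZNF143-type letters, in the stretch shared with Fto, and this motif, chosen after the sequence had been read, was present in 0.734% of 32851 mouse windows of the same length. It had no GC, CCAAT or TATA box. The Irx2 window had 2 GC boxes, against 32.7% of windows with at least 1, and 1 CCAAT box, present in 33.8% of windows. The Irx3 window matched none of the 4 motifs. Its GC content was 56.0%, against 68.4% for Irx2, 59.6% for Rpgrip1l and a median of 52.4% over all windows. A match describes letters only and shows no binding.

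The Iroquois genes split by cluster. Irx3 and Irx5, beside Fto, were higher in 3KR, and Irx1 and Irx2, on chromosome 13, were lower. Rpgrip1l, on the far side of Fto, was higher in 3KR as well. Of the 5 genes 3 were thus called higher and 2 lower, against 46.7% and 14.0% of all tested genes (60.6% in either direction), and in none of the 5 did the libraries of the groups overlap, as held for 66.7% of all tested genes.

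Irx3 was the most abundant of them in both groups. It measured 28.4, 34.7 and 33.9 FPKM in the 3KR libraries, against 16.8, 18.3 and 17.6 FPKM in the WT libraries. The lowest 3KR library, replicate 1, still lay well above the highest WT library. The mean was 32.4 ± 3.46 FPKM in 3KR and 17.6 ± 0.715 FPKM in WT (SD, n = 3 each), a 1.84-fold higher level. The log2 difference was 0.84 (95% interval 0.67 to 1.02, limma adjusted p = 4.033e-05), or 0.69 relative to the median gene. Of all tested genes, 2.56% had a larger log2 difference than Irx3.

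Irx5, the partner of Irx3 in the limb and heart, had the same direction at a lower level. It measured 5.32, 5.09 and 4.71 FPKM in the 3KR libraries, against 2.87, 2.83 and 3.06 FPKM in the WT libraries. The 3KR libraries lay close together and all above WT. It was 1.73-fold higher in 3KR, with a log2 difference of 0.62 (95% interval 0.48 to 0.76, limma adjusted p = 6.693e-05) and a relative difference of 0.47. Crnde, a long non-coding RNA that starts next to Irx5, rose to 6.08 ± 0.415 FPKM in 3KR, against 4.58 ± 0.337 FPKM in WT (SD, n = 3 each). Its log2 difference was 0.35 (limma adjusted p = 0.00286). Irx3os starts upstream of Irx3 on the opposite strand, and from these starts the 2 genes run apart. It was too low to test, at 1.19, 0.581 and 1.06 FPKM in 3KR and 0.736, 0.449 and 0.645 FPKM in WT, with overlapping groups. Whether reads were counted by strand is not given in the sources used here. Where transcripts of opposite strands overlap, their reads therefore cannot be told apart.

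Irx1 had the largest difference of the 5. Loss of this gene in mice disturbs the maturation of the lung. It measured 1.25, 1.61 and 1.38 FPKM in the 3KR libraries, against 5.97, 5.92 and 6.30 FPKM in the WT libraries. All 3KR libraries were low and the groups lay far apart. The mean of 1.41 ± 0.182 FPKM in 3KR was 4.30-fold lower than the mean of 6.07 ± 0.205 FPKM in WT (SD, n = 3 each). The log2 difference was -1.55 (95% interval -1.71 to -1.39, limma adjusted p = 7.416e-07), and the relative difference was -1.70. Only 1.09% of the tested genes had a lower value.

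Irx2, its neighbour on chromosome 13, also fell, by less and with more spread. It measured 1.46, 1.33 and 0.970 FPKM in the 3KR libraries, against 2.35, 2.40 and 1.70 FPKM in the WT libraries. Replicate 3 was the lowest of its group in both, and the highest 3KR library lay just under the lowest WT library. The mean was 1.25 ± 0.252 FPKM in 3KR and 2.15 ± 0.388 FPKM in WT (SD, n = 3 each). The log2 difference was -0.48 (95% interval -0.75 to -0.22, limma adjusted p = 0.00748), or -0.63 relative to the median gene. The pseudocount understates the change at these low levels. With 0.1 in place of 1 the log2 difference was -0.74 for Irx2 and -2.03 for Irx1.

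Rpgrip1l measured 8.60, 8.07 and 8.54 FPKM in the 3KR libraries, against 4.53, 4.07 and 4.27 FPKM in the WT libraries. Each 3KR library lay far above each WT library. The mean of 8.41 ± 0.289 FPKM in 3KR was 1.96-fold the mean of 4.29 ± 0.230 FPKM in WT (SD, n = 3 each). The log2 difference was 0.83 (95% interval 0.70 to 0.96, limma adjusted p = 6.973e-06), and the relative difference was 0.68. For each of the 5 genes taken alone, the exact permutation test of 3 against 3 libraries gave p = 0.1, two-sided, the smallest p this design allows.

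**Figure D1:**
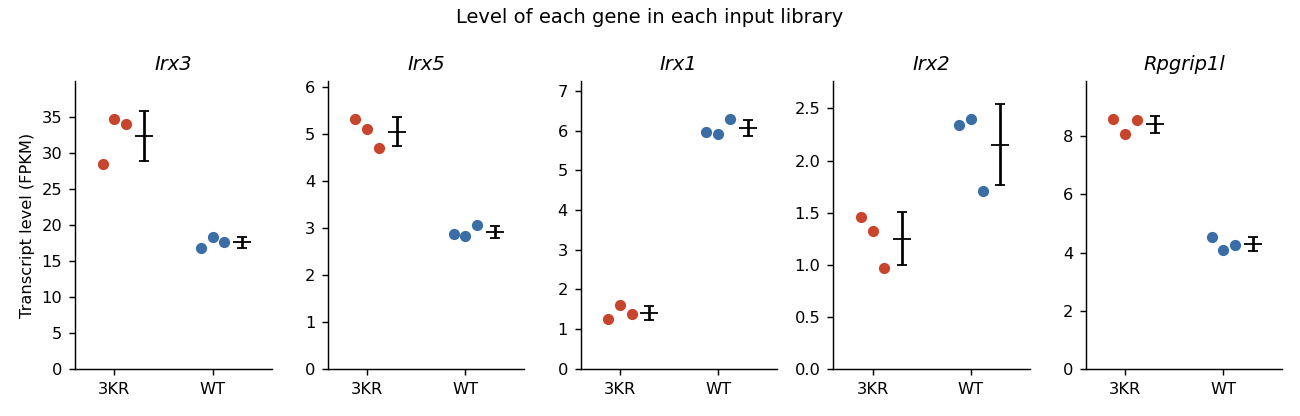
Level in FPKM of Irx3, Irx5, Irx1, Irx2 and Rpgrip1l in each input library, with points for the 3 libraries of 3KR and of WT in replicate order and a bar for the mean and SD; each panel has its own axis from 0. The 3KR points lie above WT for Irx3, Irx5 and Rpgrip1l and below WT for Irx1 and Irx2, and no panel shows overlap.

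The directions did not depend on how libraries were scaled. FPKM divides by all fragments of a library, so the 5 genes were also compared after rescaling each library to the same sum, after median ratio scaling and after quantile normalization. Irx3 had log2 differences of 0.76, 0.68 and 0.74 in that order, and Irx5 of 0.56, 0.49 and 0.50. Rpgrip1l had 0.76, 0.68 and 0.71. Irx1 had -1.61, -1.68 and -1.66, and Irx2 -0.53, -0.59 and -0.59. All 5 calls were made under each of the 4 scalings with limma. In the background, 33.5% of tested genes were called higher and 18.1% lower at the same sum, 21.6% and 24.1% after median ratio scaling, and 28.6% and 19.9% after quantile normalization. These scalings all lower the 3KR values, which favours the calls of Irx1 and Irx2 and not those of Irx3, Irx5 and Rpgrip1l.

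**Figure D2:**
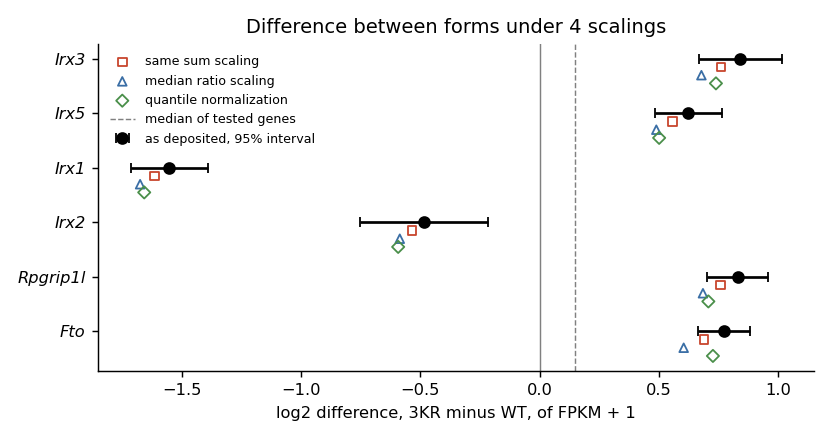
The log2 difference (3KR minus WT, of FPKM + 1) of each gene and of Fto, as a black point with its 95% interval for the deposited values and as open symbols for the 3 other scalings; the dashed line is the median of all tested genes at 0.15. Irx1 and Irx2 lie left of 0 and the other genes right of the dashed line under each scaling.

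The order of levels changed with these differences. In 3KR it ran from Irx3 through Rpgrip1l and Irx5 to Irx1 and Irx2. Irx1 and Irx2 overlapped there, at 1.25 to 1.61 FPKM and 0.970 to 1.46 FPKM. In WT, Irx1 ranked second behind Irx3, above Rpgrip1l, Irx5 and Irx2, and no neighbours in that order overlapped. The summed FPKM of the 4 detected Iroquois genes was 40.1 ± 3.28 in 3KR and 28.7 ± 0.703 in WT (SD, n = 3 each). Irx3 made up 80.7 ± 2.46% of that sum in 3KR and 61.2 ± 1.01% in WT. Irx1 made up 3.52 ± 0.209% in 3KR and 21.2 ± 0.948% in WT. Together Irx1 and Irx2 held 6.67 ± 0.860% in 3KR, against 28.6 ± 0.912% in WT. The share of fragments in the conserved homeobox that could be assigned to more than 1 Iroquois gene is not known for this table.

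**Figure D3:**
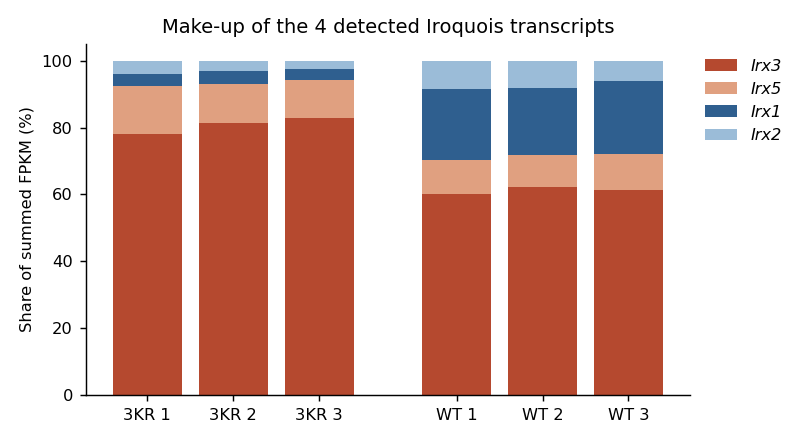
Share of the summed FPKM of Irx3, Irx5, Irx1 and Irx2, in percent, that each gene takes in each input library, with 1 stacked bar per library. Irx1 and Irx2 take 5.73% to 7.42% in the 3KR bars and 28.0% to 29.7% in the WT bars.

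Ratios of 2 genes within a library are free of the scaling between libraries, and 5 pairs were compared with exact permutation tests, two-sided, none of which can give a p under 0.1. Irx5 over Irx3 was 0.187, 0.147 and 0.139 in 3KR and 0.170, 0.155 and 0.174 in WT, with overlapping groups (log2 difference of the ratio -0.09, exact p = 0.6). Irx2 over Irx1 was 1.17, 0.826 and 0.702 in 3KR and 0.393, 0.406 and 0.270 in WT, without overlap. The mean ratio was 0.899 ± 0.241 in 3KR and 0.356 ± 0.0747 in WT, a log2 difference of 1.33 (exact p = 0.1, Benjamini-Hochberg adjusted p = 0.25 over the 5 pairs). Irx3 over Rpgrip1l was 3.86 ± 0.511 in 3KR and 4.10 ± 0.384 in WT (SD, n = 3 each), with overlapping groups (exact p = 0.6).

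Fto itself, carried by both viruses, was 443 ± 24.8 FPKM in 3KR and 258 ± 9.84 FPKM in WT (SD, n = 3 each), a 1.71-fold higher level. Its FPKM does not separate transcripts of the virus from those of the locus. The size of its difference was close to those of its neighbours. Irx3 over Fto was 0.0673, 0.0797 and 0.0722 in 3KR and 0.0658, 0.0731 and 0.0652 in WT, with overlapping groups (exact p = 0.3, adjusted p = 0.5). Rpgrip1l over Fto was 0.0204, 0.0185 and 0.0182 in 3KR and 0.0177, 0.0163 and 0.0159 in WT. These did not overlap, with a log2 difference of 0.19 (exact p = 0.1, adjusted p = 0.25).

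The next comparison asked whether the genes around each cluster moved as well, taking the 8 nearest protein-coding genes on each side. Around the chromosome 8 block, 7 of 16 neighbours were high enough to test, of which 5 rose (71.4%) and 1 fell (14.3%), against 46.7% and 14.0% of all tested genes. Median ratio scaling left 2 of them higher and 1 lower, where 21.6% and 24.1% of all tested genes were called. On the side of Rpgrip1l, the nearest tested genes, Aktip, Rbl2 and Chd9, differed little. Aktip, a vesicle transport protein, was 1.16-fold higher (log2 difference 0.19, limma adjusted p = 0.0481) and Rbl2, the retinoblastoma relative p130, 1.14-fold higher (0.17, adjusted p = 0.00803). Both calls were made on the deposited scale alone. Chd9, a chromatin remodeller, measured 17.3 ± 0.807 FPKM in 3KR and 16.1 ± 0.508 FPKM in WT (SD, n = 3 each; limma adjusted p = 0.116). Tox3, next to it, was too low to test. It averaged 0.195 ± 0.0160 FPKM in 3KR and 0.0526 ± 0.0374 FPKM in WT (SD, n = 3 each), and its groups did not overlap.

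Beyond Irx6 the nearest genes moved in opposite directions. Mmp2, the gelatinase that cleaves denatured collagen, measured 179, 176 and 182 FPKM in 3KR, against 307, 296 and 282 FPKM in WT. It was 1.65-fold lower in 3KR (log2 difference -0.72, limma adjusted p = 2.177e-06). Lpcat2, next to it, encodes an enzyme that makes platelet-activating factor, and it measured 15.5, 11.7 and 16.9 FPKM in 3KR, against 5.73, 4.14 and 5.24 FPKM in WT. It was 2.92-fold higher in 3KR (log2 difference 1.37, limma adjusted p = 8.142e-05). Capns2 and Slc6a2 were below 0.3 FPKM in each library and were not tested. Farther out on the side of Rpgrip1l, Nod2, a sensor of bacterial cell walls, was 1.65-fold higher in 3KR. It measured 1.48 ± 0.278 FPKM in 3KR and 0.898 ± 0.0240 FPKM in WT (limma adjusted p = 0.00641). Nod2 passed the filter through 3KR alone, and it is counted among the neighbours that rose. Cyld, a deubiquitinase on the same side, was called higher (log2 difference 0.21) on the deposited scale alone.

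Around the chromosome 13 block, 10 of 16 neighbours were tested, of which 3 rose (30.0%) and 1 fell, against 46.7% and 14.0% of all tested genes. The one that fell was Adamts16, the gene next to Irx1, which encodes a secreted metalloprotease. It measured 0.475, 0 and 0.147 FPKM in 3KR, against 3.59, 2.27 and 3.14 FPKM in WT. It passed the filter through WT alone (log2 difference -1.73, limma adjusted p = 5.66e-05). Adamts16, Irx1 and Irx2 are thus 3 genes in a row that were lower in 3KR. Irx4 follows them at 0, and then Ndufs6, a subunit of respiratory complex I, at 5.98 ± 0.341 FPKM in 3KR and 6.14 ± 0.419 FPKM in WT (limma adjusted p = 0.688; called lower after median ratio scaling alone). Mrpl36, a mitochondrial ribosomal protein, had a log2 difference of 0.02 (limma adjusted p = 0.824), and Ice1 and Med10, on the Adamts16 side, had 0.14 and 0.12 (limma adjusted p = 0.073 and 0.0931). Ube2ql1, a ubiquitin-conjugating enzyme, was 1.92-fold higher at 3.57 ± 0.930 FPKM in 3KR and 1.87 ± 0.421 FPKM in WT (limma adjusted p = 0.0071). Lpcat1, an enzyme of phosphatidylcholine remodelling, and Clptm1l had log2 differences of 0.30 and 0.11, neither called under all 4 scalings.

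**Figure D4:**
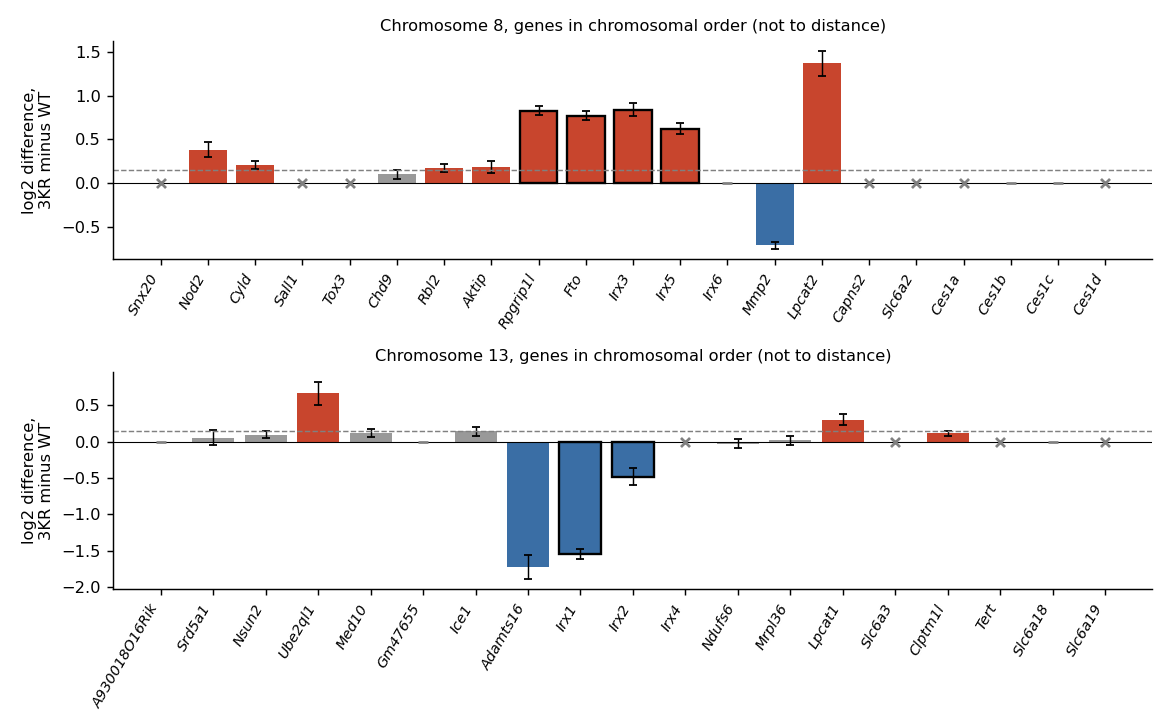
The log2 difference (3KR minus WT, of FPKM + 1) with its standard error for genes in chromosomal order around the chromosome 8 block (top) and the chromosome 13 block (bottom), red where called higher in 3KR, blue where called lower and grey where not called; black outlines mark the genes of the block, crosses mark genes too low to test, dashes mark genes without a row, and the dashed line is the median of all tested genes at 0.15. Rpgrip1l, Fto, Irx3 and Irx5 stand side by side between 0.62 and 0.84, and Adamts16, Irx1 and Irx2 side by side between -1.73 and -0.48. For Fto, transcripts of the virus and of the locus are not separated.

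Other genes of the pathways were counted in lists. Of the 10 tested TALE homeobox genes outside the Iroquois family, which include DNA-binding partners of Hox proteins, 3 rose (30.0%) and 2 fell (20.0%). Among all tested genes 46.7% rose and 14.0% fell. The list had a median log2 difference of 0.03, against 0.15 for all tested genes. Pknox2 was the furthest from 0, at 13.6 ± 0.444 FPKM in 3KR and 25.0 ± 0.520 FPKM in WT (SD, n = 3 each; log2 difference -0.83, limma adjusted p = 1.627e-06). Meis1 fell by 0.24 and Meis2 rose by 0.31 on the log2 scale, both called under all 4 scalings. Mkx, the tendon regulator most like the Iroquois genes in its homeodomain, measured 42.1 ± 0.838 FPKM in 3KR and 45.5 ± 2.06 FPKM in WT (limma adjusted p = 0.0616), and was called lower under the 3 other scalings.

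The ciliary transition zone list, the partners of Rpgrip1l, was close to the background in genes called higher, with fewer called lower. Of 20 tested genes 9 rose (45.0%) and 1 fell (5%), against 46.7% and 14.0% of all tested genes. The median log2 difference was 0.19. Median ratio scaling gave 5 higher and 2 lower, where 21.6% and 24.1% of all tested genes were called. Tmem231 and Tctn2, membrane proteins of the gate, rose by 0.35 and 0.31 on the log2 scale, and Ahi1, which binds to it, by 0.31, all called under the 4 scalings. Iqcb1 was the one that fell, by 0.26. The log2 difference of Rpgrip1l, 0.83, was above that of each tested gene of the list.

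Hedgehog signalling, for which the transition zone is needed, was read from 8 tested genes. Of these 2 rose (25.0%) and 1 fell (12.5%), against 46.7% and 14.0% of all tested genes. The median log2 difference was 0.10. Cdon, a Hedgehog co-receptor, measured 24.9, 22.0 and 21.3 FPKM in 3KR, against 50.8, 47.1 and 48.5 FPKM in WT, a 2.15-fold lower level in 3KR (log2 difference -1.07, limma adjusted p = 2.794e-06). Gli3, the repressor of the pathway, measured 422 ± 13.0 FPKM in 3KR and 318 ± 15.5 FPKM in WT (log2 difference 0.41, limma adjusted p = 1.070e-04), and Gas1, another co-receptor, rose by 0.24, a call lost after median ratio scaling (limma adjusted p = 0.213). Smo, the signal transducer, had a log2 difference of -0.09 (limma adjusted p = 0.0571) and was called lower under the 3 other scalings. The pathway's transcriptional target Gli1 was below 0.06 FPKM in each library, and Ptch1, the receptor and target, measured 11.3 ± 0.662 FPKM in 3KR and 11.6 ± 0.778 FPKM in WT (limma adjusted p = 0.647; called lower after median ratio scaling alone).

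Genes reported as partners or targets of Iroquois factors in other tissues were also read. Of 4 tested, 1 rose (25.0%) and 1 fell (25.0%), against 46.7% and 14.0% of all tested genes. The median log2 difference was -0.01. Gata3, whose protein binds IRX5, measured 2.53, 2.23 and 2.42 FPKM in 3KR, against 0.536, 1.06 and 0.786 FPKM in WT. It passed the filter through 3KR (log2 difference 0.93, limma adjusted p = 1.697e-04). Cxcl12, a chemokine repressed by Irx5 in Xenopus embryos, measured 70.3 ± 3.06 FPKM in 3KR and 409 ± 8.41 FPKM in WT (SD, n = 3 each; log2 difference -2.53). Trps1, the other IRX5 partner, had a log2 difference of -0.04 (limma adjusted p = 0.466; called lower under 2 other scalings). Gja1, the gap junction protein connexin 43, measured 4523 ± 108 FPKM in 3KR and 4479 ± 95.9 FPKM in WT (limma adjusted p = 0.724; called lower after median ratio scaling alone).

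Irx3 and Irx5 are known to restrain heat production in mouse fat cells, and the thermogenic genes were mostly absent or low here. Of 12 listed genes 5 were high enough to test. Of these 2 rose (40.0%) and 1 fell (20.0%), against 46.7% and 14.0% of all tested genes. The median log2 difference was 0.03. Prdm16, a regulator of brown fat, rose by 0.31 and was called under all 4 scalings. Arid5b, the other that rose, is a regulator known to repress human IRX3 and IRX5. The 40.0% thus includes a gene listed for that role. Arid5b measured 24.9 ± 0.704 FPKM in 3KR and 20.7 ± 0.531 FPKM in WT (log2 difference 0.25, limma adjusted p = 0.00118; not called after median ratio scaling, adjusted p = 0.163). Ppargc1a, a coactivator of mitochondrial genes, was 1.46-fold lower at 1.72 ± 0.411 FPKM in 3KR and 2.52 ± 0.291 FPKM in WT (log2 difference -0.38, limma adjusted p = 0.022), a call lost without WT replicate 1. Tmem26 had a log2 difference of -0.08 (limma adjusted p = 0.48), and Cidea was under 0.06 FPKM in each library.

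**Figure D5:**
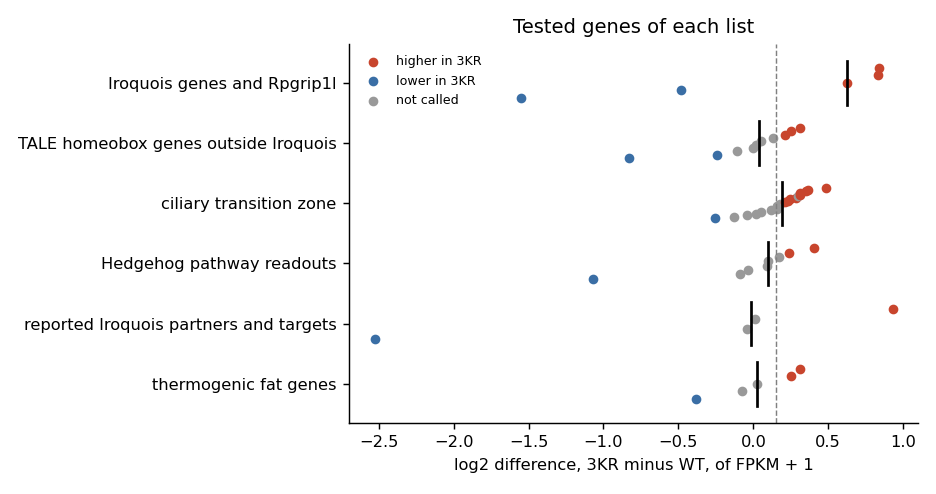
The log2 difference (3KR minus WT, of FPKM + 1) of each tested gene, by list, red where called higher in 3KR, blue where called lower and grey where not called; black bars are list medians and the dashed line is the median of all tested genes at 0.15. The list medians outside the top row lie between -0.01 and 0.19.

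The tested genes whose levels over the 6 libraries were most like those of each gene were found by Euclidean distance of log2(FPKM + 1). They were Slc24a3, Kcnj15 and the chemokine Cxcl1 for Irx1 (distances 0.23 to 0.30), and Eepd1, Dgat2 and Lrrc75b for Irx2 (0.23 to 0.31). For Irx3 they were Ripk2, Atp6v0a1 and Myl9 (0.29 to 0.34), and for Irx5 Rab27b, Stac2 and Tex9 (0.18 to 0.20). Rbm14, Aaas and Cobll1 were nearest to Rpgrip1l (0.13 to 0.16). Cxcl1, for example, measured 1.27 FPKM on average in 3KR and 6.73 FPKM in WT. The distance reflects both the level and the difference between the groups.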

How the data were processed

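For the 6 input libraries, per the labels, total RNA was isolated with TRIzol and poly(A) RNA selected with oligo(dT) beads. The authors deposited 1 table of FPKM values, per the file headers. Aligner, quantifier and annotation: not given in the sources used here. Since the build GRCh38 named in the submitters' processing notes is a human assembly, no coordinates come from the table. Sequences and gene order come from RefSeq, GRCm38.p6.

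The table had 19763 rows. Of rows that shared a name (24 repeats) the one with the largest mean was used. At most 10 of 5669 low genes shared a ratio between libraries, so whole reads were not recovered and depth stays unknown. Genes were tested if 3 or more libraries had at least 1 FPKM, on log2(FPKM + 1) in limma 3.58.1 (R 4.3.3, empirical Bayes with trend). Single values used exact permutation tests in SciPy 1.17.1. The fit was tested on simulated data with known changes.

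The genes and lists were chosen with earlier results of these data known. Named were the 6 genes, Fto and Irx4, the 4 list genes with the smallest p, the 4 nearest neighbours per side and the 3 genes with the most similar levels. Of the list genes, 2 that this rule names are not reported here. Ptch1, Gli1, Iqcb1, Mkx, Cidea, Kdr and Egfl7 were named after their values were seen. Alternatives were another pseudocount, other filters, 3 scalings, a replicate block, no trend and leaving out each library. Spearman's rho across genes was 0.9939 to 0.9949 within groups and 0.9608 to 0.9628 between them.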

Additional observations from a re-analysis of the deposited data

How the results depend on the processing

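The calls of Irx1, Irx2, Irx3, Irx5 and Rpgrip1l kept their direction and an adjusted p under 0.05 (limma) in all 14 alternatives. The highest adjusted p was 0.0349, for Irx2 without a filter on low values. Leaving out 1 library gave log2 differences of -1.61 to -1.50 for Irx1, -0.59 to -0.39 for Irx2, 0.79 to 0.93 for Irx3, 0.59 to 0.66 for Irx5 and 0.80 to 0.86 for Rpgrip1l. Same-numbered libraries correlated at -0.034 to 0.029 in their deviations, and differently numbered ones at -0.060 to 0.079. These values give no sign of pairing by number. They cannot show that same-numbered libraries came from separate animals or cultures, which the labels do not give. With the replicate number as a block, the log2 differences were unchanged, with adjusted p from 1.433e-05 (Irx1) to 0.00178 (Irx2), and 4926 genes were higher and 1499 lower, against 5127 and 1535. Median ratio scaling gave 2371 higher and 2645 lower, quantile normalization 3142 and 2190, and rescaling to the same sum 3682 and 1989.

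Counts in the lists moved with the scaling, which lowers 3KR. After median ratio scaling 1 TALE gene was higher and 4 lower, 5 transition zone genes higher and 2 lower, 1 Hedgehog gene higher and 3 lower, 3 Iroquois partners lower, 1 thermogenic gene higher, 2 neighbours on chromosome 8 higher, and 1 on chromosome 13 higher and 2 lower. After quantile normalization 1 TALE gene was higher, 5 transition zone genes higher and 2 lower, 2 Hedgehog genes and 2 partners lower, 2 neighbours on chromosome 8 higher and 1 on chromosome 13 higher. Rescaling to the same sum gave 2 transition zone genes lower, 2 Hedgehog genes lower and 2 neighbours on chromosome 8 higher. Without a filter, 2 transition zone and 3 Hedgehog genes were lower. Leaving out 1 library gave 1 to 2 transition zone genes lower and 0 to 1 thermogenic genes lower. The log2 difference of Irx3 over Rpgrip1l ran from -0.18 to 0.015, changing sign without 3KR replicate 1; the cause was not tested. The depth is unknown, so no detection limit is given for genes listed at 0.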
